A study of Mus musculus with 15 samples.

Results

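The 33 genes described here carry glucose into the cell, break it down to pyruvate, turn pyruvate into lactate or pass it to the mitochondrion, and feed the pentose phosphate pathway. They were chosen by symbol, and every one of the 33 was found among the 30949 genes listed in both sets of tables, through its Ensembl identifier in GENCODE vM21. By role there were 2 glucose transporters, 9 genes of the upper steps from hexokinase to triosephosphate isomerase, 2 genes that set fructose 2,6-bisphosphate, 6 genes of the lower steps, 1 gene of the bisphosphoglycerate branch, 4 lactate genes, 3 genes at the entry of pyruvate into the mitochondrion, 2 phosphoglucomutases and 4 pentose phosphate genes.

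The cells were regulatory T (Treg) cells, the Foxp3-expressing T cells that restrain immune responses, sorted by flow cytometry as CD25+CD39+ cells out of lymph nodes and spleen of C57BL/6 females. All mice had the genotype Foxp3YFP-Cre/+ Dock8flox/flox, so the WT cells too carried floxed Dock8 alleles. Females silence 1 X chromosome in each cell, and Foxp3 is X-linked, so the same animals hold YFP+ Treg cells, which express Cre from the Foxp3 locus and are labelled DOCK8 deficient (KO here), and YFP- Treg cells, labelled WT. Cells were kept in culture for 16 hours, either in medium alone or with beads that carry antibodies to CD3 and CD28, at 1 bead for each cell, and libraries were made with Smart-Seq2, a full-length method for small samples. There were 2 KO libraries with beads, 3 WT libraries with beads, 6 KO libraries without beads and 4 WT libraries without beads, which the study calls independent samples. Libraries are named by the number in their title, and 1 KO and 1 WT library without beads have none. Such beads stand in for antigen and costimulation. The labels do not say whether bead and no-bead libraries were prepared together, so that beads and preparation cannot be told apart. The ages of the mice, and which library came from which mouse, are not given either, and p-values measure the spread between these libraries.

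Resting T cells take up little glucose. After stimulation through the T cell receptor and CD28 they raise glucose uptake and glycolysis, and much of the pyruvate leaves the cell as lactate even where oxygen is present. Myc and Hif1a encode transcription factors known to raise transcription of glycolytic genes in activated T cells, and Treg cells are known to rely on this programme less than conventional T cells do, partly through Foxp3.

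Values are in TPM, a measure of abundance that accounts for transcript length and library total. TPM can be compared between genes but carry no read counts, and sequencing depth is therefore unknown. Deposited TPM summed to 819697 to 938139 per library. The groups also differed outside these genes. A set of 55 predicted genes, each above 1000 TPM on average, took 19.5% to 26.4% of TPM in KO libraries with beads, 14.6% to 20.3% in WT libraries with beads, 37.6% to 58.5% in KO libraries without beads and 24.9% to 46.4% in WT libraries without beads. The part of these abundant predicted genes in the results below was not tested, beyond the rescaled values given beside them. Dock8 was lower in KO cells without beads, at 8.58 ± 1.85 TPM against 14.6 ± 5.35 TPM in WT cells (SD, n = 6 and 4; log2 difference -0.67, exact two-sided permutation p = 0.0190). With beads it had 5.82 and 7.90 TPM in KO libraries against 8.71 to 10.1 TPM in WT (exact two-sided permutation p = 0.1, the smallest that 2 and 3 libraries allow). The difference without beads no longer passed without WT library 3 (log2 difference -0.46) or under rescalings given in the closing section. In that comparison the median log2 difference was -0.11 over all genes tested and -0.84 over general T cell markers. Dock8 thus did not stand out from these markers. TPM cover the whole gene, and the labels do not name the exons that Cre removes. Markers of Treg cells summed to 1290 to 1440 TPM in KO libraries with beads, 1260 to 1390 TPM in WT libraries with beads, 321 to 479 TPM in KO libraries without beads and 454 to 705 TPM in WT libraries without. Foxp3, named after its values were seen, had 42.2 and 42.7 TPM in KO libraries with beads, 88.6 to 106 TPM in WT libraries with beads, 6.29 to 26.0 TPM in KO libraries without beads and 29.3 to 51.6 TPM in WT libraries without. General T cell markers summed to 1620 to 1870 TPM, 1250 to 1550 TPM, 482 to 876 TPM and 857 to 1770 TPM in the same 4 groups. The part of these markers in the results was not tested. The markers of other cell types (CD8 T and NK cells, B cells, myeloid cells, neutrophils, erythroid cells and platelets) summed to at most 61.8 TPM per list. RNA comes from whole populations, in which fewer cells expressing a gene and less RNA per cell cannot be told apart.

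**Figure D1:**
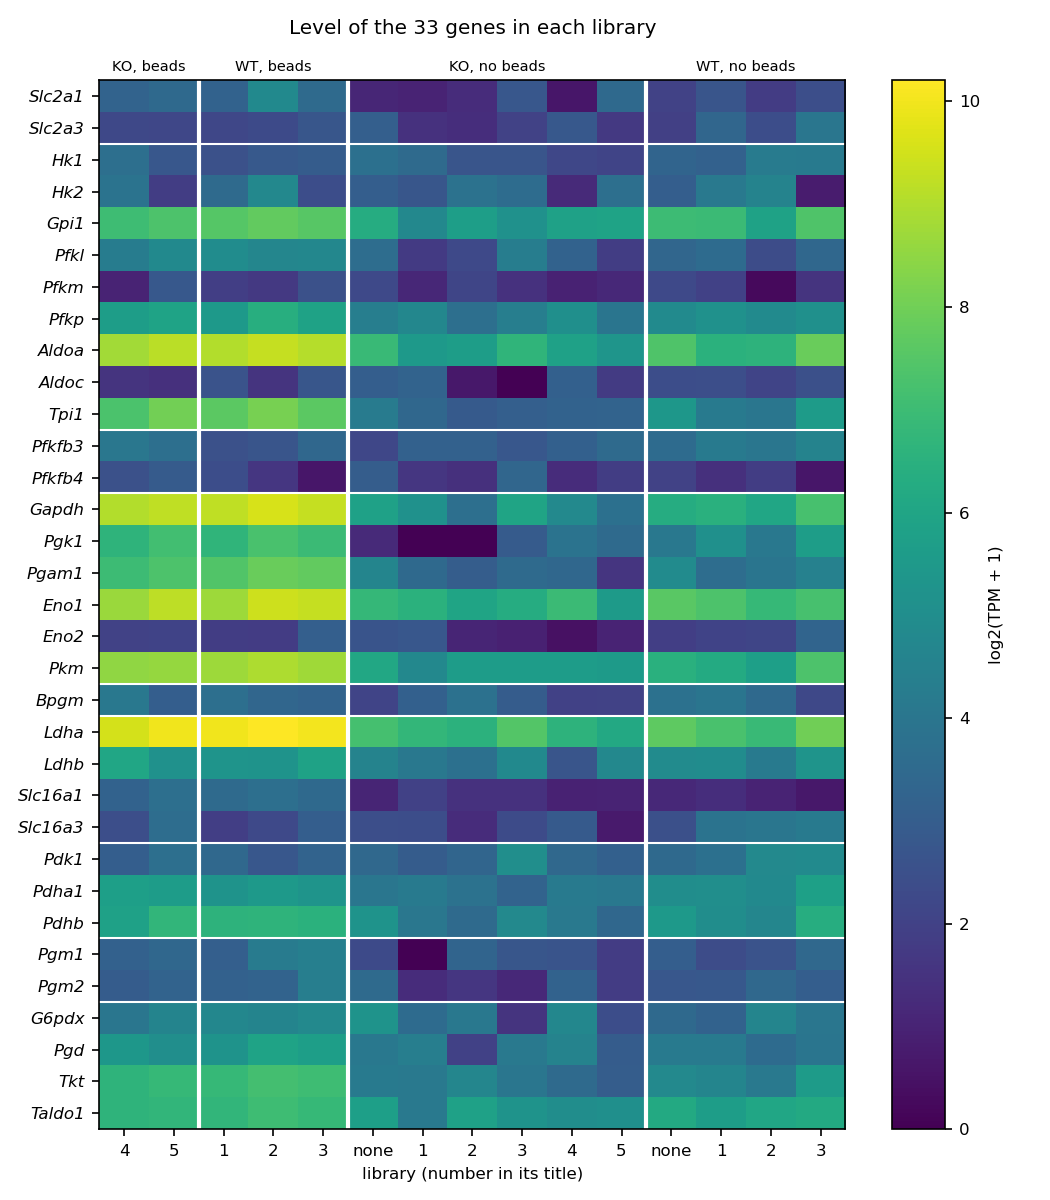
Level of the 33 genes, one row each, in the 15 libraries, one column each, as log2(TPM + 1); white lines separate the 4 groups and the 9 roles. Ldha, Gapdh, Aldoa, Eno1 and Pkm form the brightest rows in the 5 bead libraries, and Pgk1, Pgm1 and Aldoc include values listed at 0 in KO libraries without beads.

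With beads, transcripts of the trunk of the pathway rose in both genotypes. In all, 15 of the 33 genes rose in KO cells and 10 rose in WT cells, and none fell in either; all 33 had passed the filter on low values (1 TPM in at least 2 libraries). Among all 29989 genes tested, 5.95% rose in KO cells and 4.6% in WT cells, while 646 and 1988 genes fell. Of the 5937 genes that averaged 20 TPM or more in some group, 1582 rose in KO cells and 1220 in WT cells, while 353 and 894 fell. The 33 genes include 18 of the 5937, and of these 18 genes 14 rose in KO cells and 9 in WT cells. Differences here and below are on the log2(TPM + 1) scale. The median log2 difference was 1.5 over the 33 genes in KO cells and 0.88 in WT cells, beside -0.23 and -0.44 over all genes tested. Over the 5937 genes the medians were 0.74 and 0.19, and over the 18 they were 2.33 and 1.78. A gene can enter this set through its bead groups alone, which favours rises among the 5937 and among the 18. Pfkl, Pgam1, Pgd and G6pdx entered in this way, each averaging under 20 TPM in both groups without beads. With median-ratio scaling the medians were 1.66 and 1.47 over the 33 genes, beside -0.14 over all genes in both genotypes. With abundant predicted genes left out they were 0.93 and 0.50 over the 33 genes, beside -0.57 and -0.70 over all genes. Tests were made with limma and adjusted over all genes by the Benjamini-Hochberg method, with 0.05 as the threshold for a call; adjusted p-values below come from it.

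The 9 genes that rose in both genotypes were Aldoa, Tpi1, Gapdh, Pgam1, Eno1, Pkm, Ldha, Slc16a1 and Tkt, which is 60% of the KO list and 90% of the WT list. They include every trunk enzyme from aldolase to lactate dehydrogenase but phosphoglycerate kinase. Of these 9, the 8 other than Slc16a1 were called in KO cells, and all 9 in WT cells, under each of the 27 other settings tried. Another 6 rose in KO cells (Gpi1, Pfkp, Pgk1, Pdha1, Pdhb and Taldo1) and 1 in WT cells (Pgd), but no gene of the 33 was called for a difference between the 2 bead responses, so these calls are not shown to belong to 1 genotype. Without KO library 5 with beads, 8 of the 15 KO calls were left, and the 7 lost were Gpi1 (log2 difference 1.44 without it), Pfkp (1.32), Pgk1 (4.70), Slc16a1 (1.88), Pdha1 (1.84), Pdhb (1.66) and Taldo1 (1.48), each with its direction kept; without KO library 4 the number was 10, with Gpi1 (1.73), Pfkp (1.55), Pdha1 (1.71), Pdhb (2.54) and Taldo1 (1.53) lost.

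**Figure D2:**
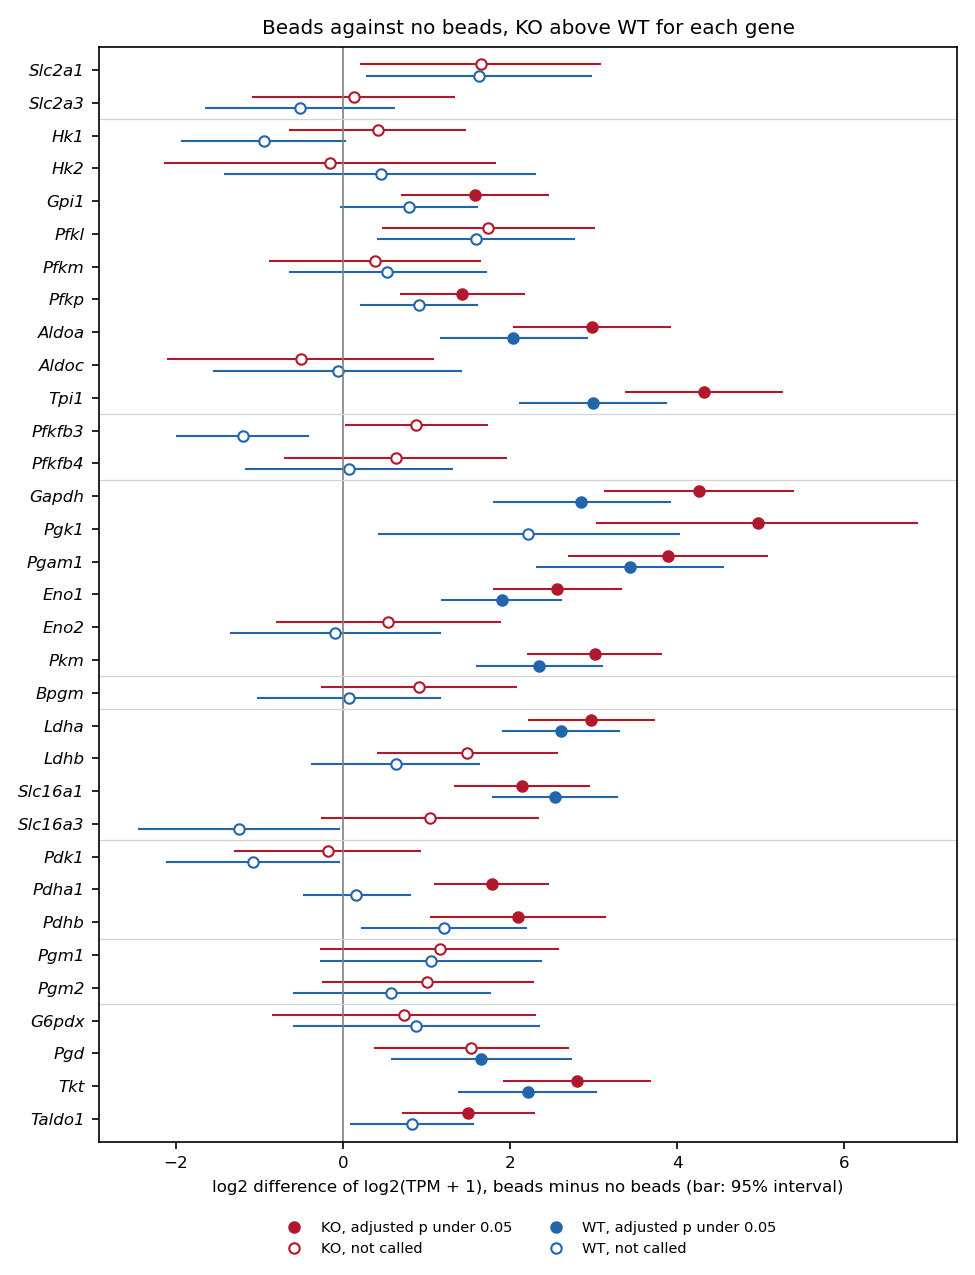
Difference between cells with and without beads for each of the 33 genes (horizontal axis, log2 difference on the log2(TPM + 1) scale; KO above WT for each gene; bars are 95% intervals from limma). Filled points passed an adjusted p of 0.05. Filled points, 15 for KO and 10 for WT, all lie right of 0.

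Neither glucose transporter gene passed the test. Slc2a1, which encodes the transporter GLUT1, stood at 8.44 and 10.1 TPM in KO libraries with beads, against 1.12, 1.00, 1.47, 5.88, 0.537 and 10.1 TPM in KO libraries without. WT libraries stood at 8.16, 27.9 and 10.5 TPM with beads, against 2.99, 5.38, 2.49 and 4.44 TPM without. The KO groups overlap through KO library 5 without beads, and the WT groups do not. The log2 differences of 1.65 in KO cells (95% interval 0.21 to 3.09, limma adjusted p = 0.167) and 1.63 in WT cells (0.28 to 2.98, limma adjusted p = 0.115) did not pass the test. Slc2a3, which encodes the high-affinity transporter GLUT3, had 3.63 and 3.54 TPM in KO libraries with beads and 1.55 to 7.62 TPM in those without, and 3.57 to 5.62 TPM in WT libraries with beads and 2.79 to 14.9 TPM in those without.

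In the upper steps the genes of the last enzymes, Aldoa and Tpi1, rose in both genotypes. Aldoa, the aldolase that splits fructose 1,6-bisphosphate (chromosome 7, 126795234 to 126800751, minus strand, GRCm38, the assembly also called mm10), had 445 and 562 TPM in KO libraries with beads, against 120, 44.2, 50.4, 102, 56.1 and 38.7 TPM in KO libraries without. WT libraries had 523, 625 and 534 TPM with beads, against 167, 89.4, 95.4 and 232 TPM without. Every bead library thus lay above every library without beads. The log2 difference was 2.98 in KO cells (SE 0.44, limma adjusted p = 0.000886) and 2.04 in WT cells (SE 0.41, limma adjusted p = 0.00592).

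Tpi1, which interconverts the 2 triose phosphates (chromosome 6, 124810586 to 124814296, minus strand), had 160 and 258 TPM in KO libraries with beads, against 17.8, 9.62, 6.46, 7.53, 8.36 and 8.60 TPM in KO libraries without. WT libraries had 197, 277 and 197 TPM with beads, against 40.7, 17.6, 15.1 and 47.1 TPM without. With beads it rose by 4.32 in KO cells (SE 0.45, limma adjusted p = 8.69e-05) and by 2.99 in WT cells (SE 0.42, limma adjusted p = 0.000677), again with no overlap.

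A further 2 upper-step genes were called in KO cells and not in WT cells. Gpi1, which turns glucose 6-phosphate into fructose 6-phosphate, had 132 and 163 TPM in KO libraries with beads and 26.1 to 79.4 TPM in those without (log2 difference 1.58, SE 0.41, limma adjusted p = 0.0284), and 181 to 212 TPM in WT libraries with beads and 58.0 to 168 TPM in those without (0.79, SE 0.39, limma adjusted p = 0.209). Pfkp, a phosphofructokinase subunit, rose by 1.43 in KO cells (SE 0.35, limma adjusted p = 0.0203), with 0.91 in WT cells (SE 0.33, limma adjusted p = 0.0891). Pfkp was the most abundant of the 3 phosphofructokinase genes in every group: in bead libraries its mean was 54.9 ± 6.30 TPM in KO cells and 61.7 ± 19.6 TPM in WT cells (SD, n = 2 and 3), against 23.3 ± 6.59 and 26.5 ± 3.00 TPM for Pfkl and 3.47 ± 3.50 and 3.27 ± 1.38 TPM for Pfkm.

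The hexokinases, which trap glucose in the cell, did not pass the test in either direction. Hk2, an inducible hexokinase, ranged from 2.58 to 13.9 TPM in KO libraries with beads and 1.30 to 13.3 TPM in those without. WT libraries ranged from 4.37 to 26.2 TPM with beads and from 0.712 to 22.5 TPM without. Hk1 had 4.76, 6.15 and 6.87 TPM in WT libraries with beads, all below the 8.70, 8.06, 18.0 and 17.7 TPM of WT libraries without (log2 difference -0.95, 95% interval -1.94 to 0.04, limma adjusted p = 0.207). In KO libraries Hk1 had 12.3 and 5.77 TPM with beads and 3.27 to 12.6 TPM without. In WT cells 3 of the 33 genes, Hk1, Pfkfb3 and Pdk1, had every bead library below every library without beads. This held for 20.9% of all genes and 22.8% of those averaging 20 TPM or more in some group. The other way, 17 of the 33 lay wholly higher in WT cells, against 8.61% and 32.8%. Pfkl, Pfkm and Aldoc, a second aldolase, were not called either.

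**Figure D3:**
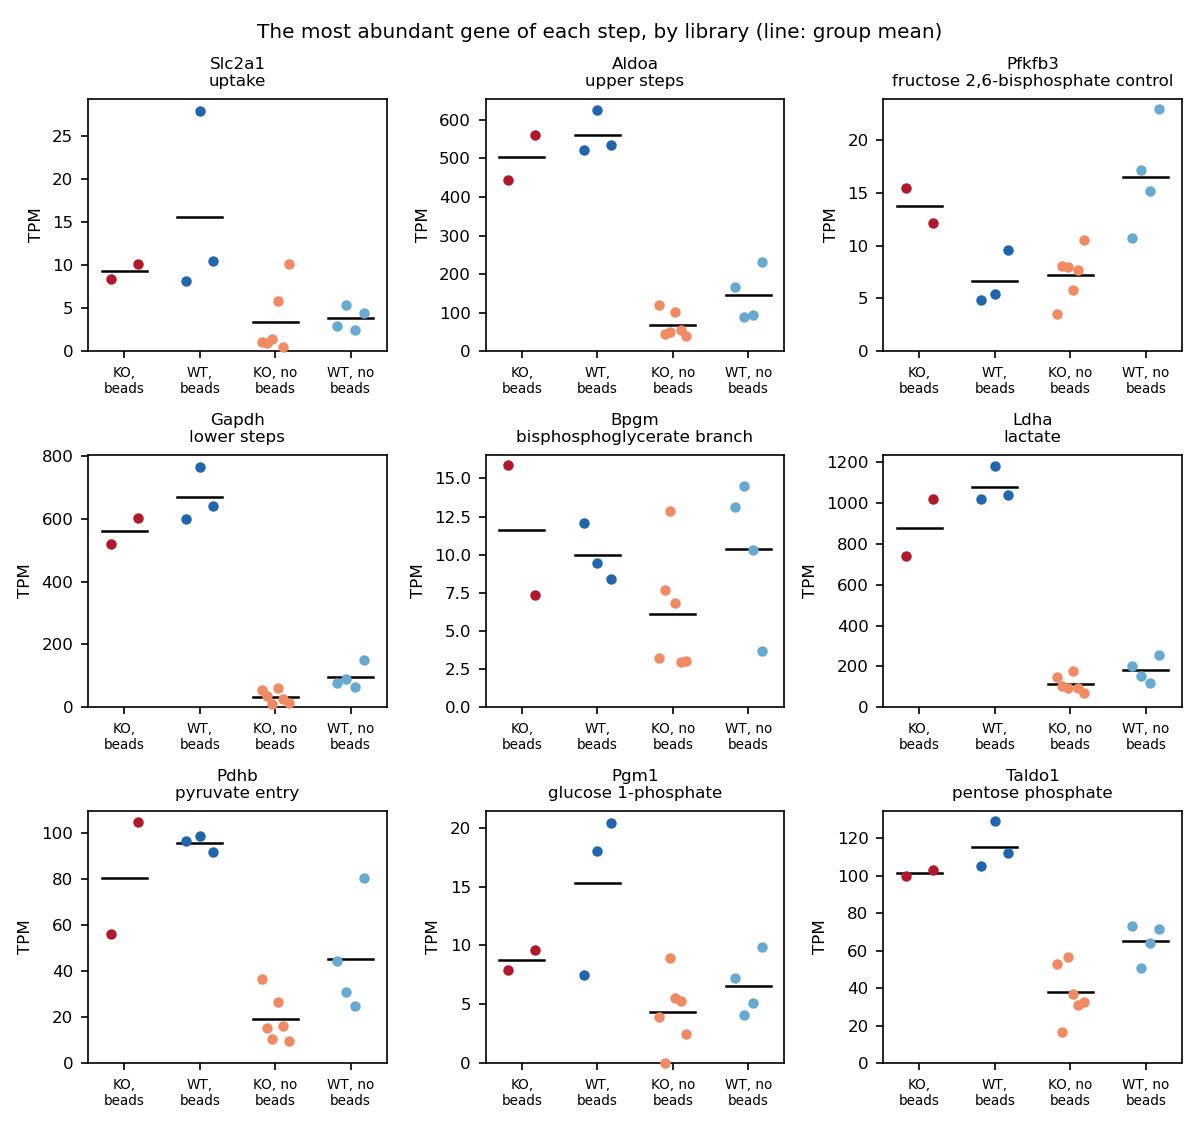
TPM (linear axis from 0) of the most abundant gene of each of the 9 roles, one point per library, with the group mean as a line; the groups are KO with beads, WT with beads, KO without beads and WT without beads. For Aldoa, Gapdh and Ldha all bead libraries stand above all others, while for Pfkfb3 the KO libraries with beads stand above the WT ones and the KO libraries without beads below them.

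The lower steps held the highest share of calls, with 5 of 6 genes in KO cells and 4 of 6 in WT cells. Gapdh, which oxidises glyceraldehyde 3-phosphate (chromosome 6, 125161715 to 125166467, minus strand), had 519 and 601 TPM in KO libraries with beads, against 55.8, 34.8, 12.1, 60.4, 27.2 and 12.6 TPM in KO libraries without. WT libraries had 598, 765 and 640 TPM with beads, against 78.3, 89.2, 65.5 and 149 TPM without. The groups with and without beads were far apart in both genotypes, with log2 differences of 4.26 in KO cells (SE 0.54, limma adjusted p = 0.000260) and 2.85 in WT cells (SE 0.50, limma adjusted p = 0.00263).

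The TPM of Gapdh are uncertain, since most of the value assigned to Gapdh-like sequence went to copies of the gene. A search of the annotated transcripts found 42 listed genes that match Gapdh over at least 400 bases at 95% identity or more. The most abundant of them on average, Gm7336 (a processed pseudogene on chromosome 7, 51746647 to 51747878, plus strand), differs from the 1002-base coding sequence of Gapdh at 0 bases, so that no read within it can tell the 2 apart. Gm3839 (chromosome 14, 11280735 to 11356726, minus strand) differs at 7. The stretch below, coding bases 4 to 63 of Gapdh and the aligned bases of both copies, shows how little separates them; capitals mark the positions where Gm3839 differs, G42A and T60C, counted from 1 at the 5′ end of the stretch.
Gapdh: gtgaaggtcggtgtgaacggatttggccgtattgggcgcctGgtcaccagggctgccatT
Gm7336: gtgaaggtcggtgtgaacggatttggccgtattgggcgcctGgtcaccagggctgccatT
Gm3839: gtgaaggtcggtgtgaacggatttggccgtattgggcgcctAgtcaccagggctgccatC
Gm7336 was listed at 857 and 1190 TPM in KO libraries with beads and 30.4 to 104 TPM in those without, and at 1170 to 1490 TPM in WT libraries with beads and 91.9 to 265 TPM in those without. Copies took 64.8% to 68.0% of the summed TPM in KO libraries with beads, 66.1% to 69.9% in WT libraries with beads, 74.5% to 94.6% in KO libraries without beads and 68.5% to 76.5% in WT libraries without. Gapdh and its copies together had 1480 and 1880 TPM in KO libraries with beads and 155 to 240 TPM in those without. The sums in WT libraries were 1880 to 2330 TPM with beads and 273 to 474 TPM without. With the sum in place of the gene, an alternative added after the data were seen, it rose with beads by 3.01 in KO cells (SE 0.27) and by 2.54 in WT cells (SE 0.25), both called.

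Pgk1, which makes the first ATP of glycolysis (chromosome X, 106187100 to 106203699, plus strand), had 97.8 and 139 TPM in KO libraries with beads. In KO libraries without beads it was listed at 0 in libraries 1 and 2 and at 1.30, 6.55, 13.7 and 10.6 TPM in the unnumbered library and libraries 3, 4 and 5. WT libraries had 102, 152 and 124 TPM with beads, against 16.1, 34.2, 16.2 and 49.7 TPM without. The log2 difference was 4.96 in KO cells (SE 0.91, limma adjusted p = 0.00348) and 2.22 in WT cells (SE 0.85, limma adjusted p = 0.107). Reads of Pgk1 can be shared with Pgk1-rs7, a processed pseudogene on chromosome 12 (10898986 to 10900240, minus strand) with an identical sequence over 1255 bases. Pgk1-rs7 was listed at 9.39 and 8.86 TPM in the KO libraries 1 and 2 that list Pgk1 at 0, and at 0 in KO library 5 and WT libraries 1 and 3. Their sum was 186 and 269 TPM in KO libraries with beads and 8.86 to 28.5 TPM in those without, and 243 to 295 TPM in WT libraries with beads and 24.9 to 49.7 TPM in those without. The sum was called in both genotypes, at 3.80 in KO cells (SE 0.44) and 2.76 in WT cells (SE 0.42).

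Pgam1, which moves the phosphate of 3-phosphoglycerate (chromosome 19, 41911923 to 41918660, plus strand), had 125 and 162 TPM in KO libraries with beads, against 1.97 to 24.2 TPM in those without, with a median of 9.89 TPM. WT libraries had 174, 232 and 216 TPM with beads, against 29.4, 11.6, 14.6 and 21.1 TPM without. With beads Pgam1 rose by 3.89 in KO cells (SE 0.56, limma adjusted p = 0.000748) and 3.44 in WT cells (SE 0.53, limma adjusted p = 0.00125), the largest difference among the 33 genes in WT cells. A copy with an identical sequence over 765 bases, Pgam1-ps2, was listed at 25.6 and 55.9 TPM in KO libraries with beads and 48.6 to 91.3 TPM in WT libraries with beads.

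**Figure D4:**
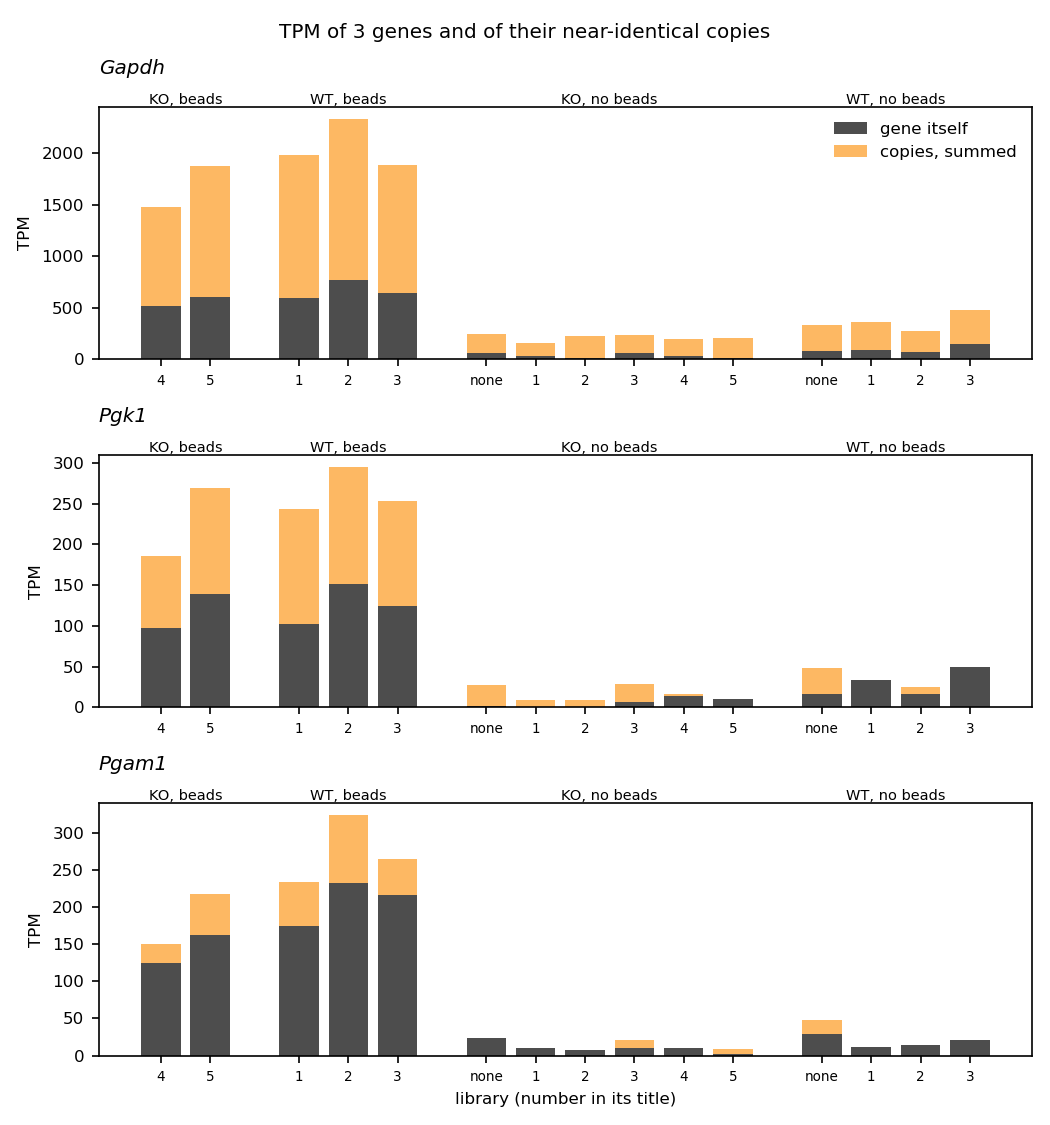
TPM of Gapdh, Pgk1 and Pgam1 (dark) with the summed TPM of their listed near-identical copies stacked on top (light) in each of the 15 libraries. For Gapdh the copies exceed the gene in every library, and for Pgk1 the split between gene and copy varies from 0% to 100% on the copy among libraries without beads.

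Eno1 and Pkm make phosphoenolpyruvate and pyruvate. Eno1, the enolase of most tissues, averaged 492 ± 128 TPM in KO libraries with beads and 85.4 ± 29.0 TPM in those without (SD, n = 2 and 6), and 584 ± 143 TPM in WT libraries with beads and 156 ± 33.1 TPM in those without (n = 3 and 4). It rose by 2.56 in KO cells (SE 0.37, limma adjusted p = 0.000650) and by 1.90 in WT cells (SE 0.34, limma adjusted p = 0.00305). Pkm had 367 and 385 TPM in KO libraries with beads and 26.0 to 67.7 TPM in those without, and 416 to 490 TPM in WT libraries with beads and 53.1 to 161 TPM in those without. Its differences were 3.01 in KO cells (SE 0.38, limma adjusted p = 0.000262) and 2.35 in WT cells (SE 0.36, limma adjusted p = 0.00114). Both genes kept bead and no-bead libraries apart. Gene-level values do not separate the 2 splice forms of Pkm. Eno2, the enolase of neurons, stayed at 0.392 to 8.89 TPM in all libraries and was not called, nor was Bpgm, which makes 2,3-bisphosphoglycerate. Eno3, an enolase gene outside the 33 and named after its values were seen, was called higher with beads in both genotypes. It averaged 57.5 and 28.3 TPM in KO and WT cells with beads, against 3.35 and 4.35 TPM without.

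Of the 4 lactate genes, Ldha and Slc16a1 rose in both genotypes. Ldha, which reduces pyruvate to lactate (chromosome 7, 46841475 to 46855627, plus strand), was the most abundant of the 33 genes in all 4 groups. It had 740 and 1020 TPM in KO libraries with beads, against 146, 106, 93.0, 179, 96.8 and 71.4 TPM in KO libraries without. WT libraries had 1020, 1180 and 1040 TPM with beads, against 204, 152, 119 and 256 TPM without. The bead libraries stood above all others, with log2 differences of 2.97 in KO cells (SE 0.36, limma adjusted p = 0.000201) and 2.61 in WT cells (SE 0.33, limma adjusted p = 0.000401).

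Slc16a1, which encodes the lactate carrier MCT1 (chromosome 3, 104638668 to 104658462, plus strand), had 8.17 and 12.2 TPM in KO libraries with beads, against 1.07, 2.88, 1.73, 1.76, 0.962 and 1.01 TPM in KO libraries without. In WT libraries Slc16a1 had 10.4, 12.4 and 10.1 TPM with beads, against 1.24, 1.5, 1.02 and 0.574 TPM without. It rose by 2.14 in KO cells (SE 0.38, limma adjusted p = 0.00285) and by 2.54 in WT cells (SE 0.36, limma adjusted p = 0.000677). Slc16a3, which encodes the exporter MCT4 that is known for cells with high glycolysis, was not called. In WT libraries Slc16a3 had 2.69, 3.73 and 7.31 TPM with beads, against 4.57, 13.6, 15 and 17.2 TPM without (log2 difference -1.24, 95% interval -2.45 to -0.03, limma adjusted p = 0.181). In KO libraries it had 4.48 and 11.7 TPM with beads and 0.673 to 6.43 TPM without (1.04, 95% interval -0.26 to 2.34, limma adjusted p = 0.357). Ldhb, which encodes the other lactate dehydrogenase subunit, averaged 50.1 ± 21.6 TPM in KO libraries with beads and 18.4 ± 8.69 TPM in those without, and 43.9 ± 11.9 TPM in WT libraries with beads and 28.5 ± 8.49 TPM in those without, and was not called.

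The letters CACGTG, the E-box core that MYC binds with MAX, occur in promoter windows of Ldha and Slc16a1. The windows of the other genes that rose in both genotypes hold none. Promoter windows of 300 bases, 250 before to 50 after an annotated start, were taken from RefSeq on GRCm38.p6, where 32 of the 33 genes matched. CACGTG, which reads the same on both strands, occurred in the windows of 4 of these 32 genes (12.5%, Ldha, Pfkfb3, Pfkm and Slc16a1) and of 8.09% of all 27025 genes in the table. Counted by window, the shares were 8.7% and 7.2%. Windows of 3 of them are shown because they differ in how the gene responded, Ldha and Slc16a1 having risen in both genotypes and Pfkm in neither. Pfkfb3, which was not called in either genotype, is not shown. Where a gene has several windows, the one with most CACGTG was taken, and the other windows of Ldha and Pfkm hold none. The window of Tpi1, which rose in both genotypes and has no such letters, follows. Capitals mark CACGTG, and each window is written 5′ to 3′ on the strand of its gene.
Ldha, chr7:46845554-46845853, plus strand: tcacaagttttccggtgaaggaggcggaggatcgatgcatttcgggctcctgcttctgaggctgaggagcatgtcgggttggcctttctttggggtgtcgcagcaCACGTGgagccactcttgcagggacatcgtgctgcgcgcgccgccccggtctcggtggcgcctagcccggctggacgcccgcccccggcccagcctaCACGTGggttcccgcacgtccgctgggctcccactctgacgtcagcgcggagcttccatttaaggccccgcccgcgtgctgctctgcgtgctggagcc
Slc16a1, chr3:104638414-104638713, plus strand: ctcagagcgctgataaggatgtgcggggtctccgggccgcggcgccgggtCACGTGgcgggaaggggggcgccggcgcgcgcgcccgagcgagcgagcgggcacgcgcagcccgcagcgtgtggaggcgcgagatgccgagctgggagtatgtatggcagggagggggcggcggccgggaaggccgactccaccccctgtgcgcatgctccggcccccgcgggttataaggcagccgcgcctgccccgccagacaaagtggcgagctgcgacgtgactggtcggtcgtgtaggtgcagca
Pfkm, chr15:98092339-98092638, plus strand: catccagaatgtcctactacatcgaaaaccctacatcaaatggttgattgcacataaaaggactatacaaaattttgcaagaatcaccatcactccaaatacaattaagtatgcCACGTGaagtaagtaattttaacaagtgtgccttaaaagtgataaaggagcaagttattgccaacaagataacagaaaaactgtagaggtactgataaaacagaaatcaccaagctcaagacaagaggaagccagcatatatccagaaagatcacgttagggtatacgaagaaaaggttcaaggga
Tpi1, chr6:124814109-124814408, minus strand: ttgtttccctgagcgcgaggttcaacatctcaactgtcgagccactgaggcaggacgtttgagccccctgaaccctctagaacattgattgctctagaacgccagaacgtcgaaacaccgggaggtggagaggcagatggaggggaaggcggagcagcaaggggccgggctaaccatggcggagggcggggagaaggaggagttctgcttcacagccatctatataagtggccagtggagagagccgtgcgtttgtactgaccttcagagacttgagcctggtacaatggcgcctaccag
The Ldha window holds CACGTG at 2 places, starting at bases 106 and 203, and the Slc16a1 window at 1, starting at base 51. The core letters of HIF sites, ACGTG (which overlaps CACGTG) and GCGTG, were searched on both strands and occurred in windows of 18 (56.2%) and 21 (65.6%) of the 32 genes, against 21.8% and 35.2% of all genes in the table. These are matches of letters in a window, and binding was not measured.

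At the entry of pyruvate into the mitochondrion, the 2 subunit genes of pyruvate dehydrogenase were called in KO cells. Pdha1, the E1 alpha subunit (chromosome X, 160122209 to 160138413, minus strand), had 53.1 and 48.7 TPM in KO libraries with beads, against 14.9, 16.8, 13.3, 8.53, 17.0 and 16.2 TPM in KO libraries without. WT libraries had 37.1, 43.8 and 38.4 TPM with beads, against 31.4, 32.3, 27.9 and 55.1 TPM without. The WT groups overlap and the KO groups do not; the log2 difference was 1.78 in KO cells (SE 0.32, limma adjusted p = 0.00348) and 0.16 in WT cells (SE 0.30, limma adjusted p = 0.774). Pdhb, the E1 beta subunit, had 56.4 and 105 TPM in KO libraries with beads and 9.56 to 36.6 TPM in those without (2.10, SE 0.50, limma adjusted p = 0.0164), and 91.7 to 98.9 TPM in WT libraries with beads and 25.0 to 80.8 TPM in those without (1.21, SE 0.46, limma adjusted p = 0.111), a difference that was called without WT library 3 without beads (1.53). Pdk1, a kinase that switches pyruvate dehydrogenase off, had 9.91, 5.86 and 8.58 TPM in WT libraries with beads, all below the 10.1, 12.8, 26.9 and 28.6 TPM of those without (-1.07, SE 0.49, limma adjusted p = 0.178). It had 7.31 and 12.1 TPM in KO libraries with beads and 6.94 to 32.2 TPM in those without. Among all genes, 20.9% had WT bead libraries wholly lower, as Pdk1 did.

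In the pentose phosphate pathway, which makes NADPH and ribose, Tkt, a transketolase, rose with beads by 2.80 in KO cells (SE 0.42, limma adjusted p = 0.000895) and by 2.21 in WT cells (SE 0.39, limma adjusted p = 0.00274). Tkt had 98.7 and 112 TPM in KO libraries with beads and 7.12 to 24.7 TPM in those without, and 112 to 140 TPM in WT libraries with beads and 16.5 to 47.2 TPM in those without. Taldo1, a transaldolase, was called in KO cells (1.5, SE 0.37, limma adjusted p = 0.0216), where it had 99.8 and 103 TPM with beads and 16.5 to 56.6 TPM without. In WT libraries Taldo1 had 105, 129 and 112 TPM with beads, against 73.1, 51.0, 64.4 and 71.9 TPM without (0.83, SE 0.35, limma adjusted p = 0.147). Pgd, the 6-phosphogluconate dehydrogenase, rose in WT cells at the edge of the threshold (1.65, SE 0.51, limma adjusted p = 0.0490), with 36.5, 58.9 and 51.6 TPM with beads and 16.8, 17.0, 10.8 and 14.7 TPM without. In KO libraries Pgd had 41.2 and 31.7 TPM with beads and 2.96 to 22.4 TPM without (1.53, SE 0.55, limma adjusted p = 0.106). Leaving out any of the 7 WT libraries ended the WT call of Pgd, with log2 differences of 1.51 to 1.85. G6pdx, the X-linked gene of the pathway's first enzyme, and the phosphoglucomutases Pgm1 and Pgm2 were not called. Pgm1 was listed at 0 in KO library 1 without beads and reached 2.49 to 8.90 TPM in the other 5.

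Neither gene that sets fructose 2,6-bisphosphate was called. Pfkfb3 encodes the enzyme that makes this activator of phosphofructokinase. It had 15.4 and 12.1 TPM in KO libraries with beads, against 3.53, 8.04, 7.96, 5.77, 7.72 and 10.5 TPM in KO libraries without, so that both bead libraries were higher (log2 difference 0.88, 95% interval 0.03 to 1.73, limma adjusted p = 0.214). WT libraries had 4.84, 5.46 and 9.57 TPM with beads, against 10.7, 17.1, 15.2 and 22.9 TPM without, so that all bead libraries were lower (-1.20, 95% interval -2 to -0.41, limma adjusted p = 0.0501). This decrease was called without the unnumbered WT library without beads (-1.38), and without the unnumbered KO library or KO library 5 without beads (-1.20 each). Among all genes, bead libraries lay wholly lower for 20.9% in WT cells and wholly higher for 11.2% in KO cells. The difference between the 2 bead responses, KO minus WT, was 2.08 (95% interval 0.92 to 3.25, unadjusted p = 0.00165 from limma) and did not pass the adjustment (limma adjusted p = 0.785). Pfkfb4 ranged from 0.524 to 9.33 TPM over all libraries, without a call.

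KO cells without beads had lower values than WT cells across most of the pathway, but no single gene passed the test. Of the 33 genes, 30 had a lower mean in KO cells on the log2(TPM + 1) scale, with a median log2 difference of -0.85, while limma called 0 and gave 17 an unadjusted p under 0.05, as it did for 11.3% of all genes. limma called 0.0667% of all genes lower in this comparison. The median was -0.11 over all genes tested, of which 58.4% were lower. It was -0.44 over the 5937 genes that averaged 20 TPM or more in some group, called abundant here, of which 76.5% were lower. Over the Treg markers and over the general T cell markers it was -0.84 each. The marker lists of other cell types had medians of -0.32 to 0.27. Scaled to 811 abundant genes that exclude these 33, which moved the median of all genes to 0.12, the median of the 33 was -0.51 and 27 were lower; the shares of TPM in abundant predicted genes given above differed in the same comparison. Summed over the 33 genes, KO libraries without beads had 478 to 940 TPM, with 940 in the unnumbered library, and WT libraries had 909 to 1740 TPM.

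The lowest p belonged to Pdha1, with 8.53 to 17.0 TPM in KO libraries (median 15.5) and 27.9 to 55.1 TPM in WT libraries (log2 difference -1.27, SE 0.26, limma adjusted p = 0.0964). In 4 genes every KO library lay below every WT library, namely Pfkfb3, Gapdh, Pgk1 and Pdha1, against 1.27% of all genes and 3.42% of the abundant ones; no gene of the 33 lay the other way, against 0.293% and 0.101%. Pfkfb3 had 3.53 to 10.5 TPM in KO libraries and 10.7 to 22.9 TPM in WT libraries (-1.09, SE 0.32, limma adjusted p = 0.214). Gapdh had 12.1 to 60.4 TPM in KO libraries and 65.5 to 149 TPM in WT libraries (-1.65, SE 0.42, limma adjusted p = 0.174), and the sum of Gapdh and its copies was also lower in all KO libraries (-0.77, SE 0.21). For Pgk1 (-2.83, SE 0.72, limma adjusted p = 0.17) the sum with its copy overlapped, at 8.86 to 28.5 TPM in KO libraries and 24.9 to 49.7 TPM in WT libraries (-1.27, SE 0.35).

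Other genes pointed the same way with some overlap. Tpi1 had 6.46 to 17.8 TPM in KO libraries (median 8.48) and 15.1 to 47.1 TPM in WT libraries (-1.45, SE 0.35, limma adjusted p = 0.152). Gpi1 had 26.1 to 79.4 TPM in KO libraries and 58.0 to 168 TPM in WT libraries (-1.18, SE 0.33, limma adjusted p = 0.201). Slc16a3 had 0.673 to 6.43 TPM in KO libraries and 4.57 to 17.2 TPM in WT libraries (-1.61, SE 0.48, limma adjusted p = 0.225). Ldha differed less, by -0.66 (95% interval -1.26 to -0.07, limma adjusted p = 0.387). Pdha1, Pgk1 and G6pdx are X-linked, and KO cells use the X chromosome that carries Foxp3-YFP-Cre while WT cells use the other one. For these genes the X chromosome in use and DOCK8 deficiency cannot be told apart. KO cells also express YFP and Cre from the Foxp3 locus, and WT cells do not. For every gene here, that difference and DOCK8 deficiency likewise cannot be told apart.

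**Figure D5:**
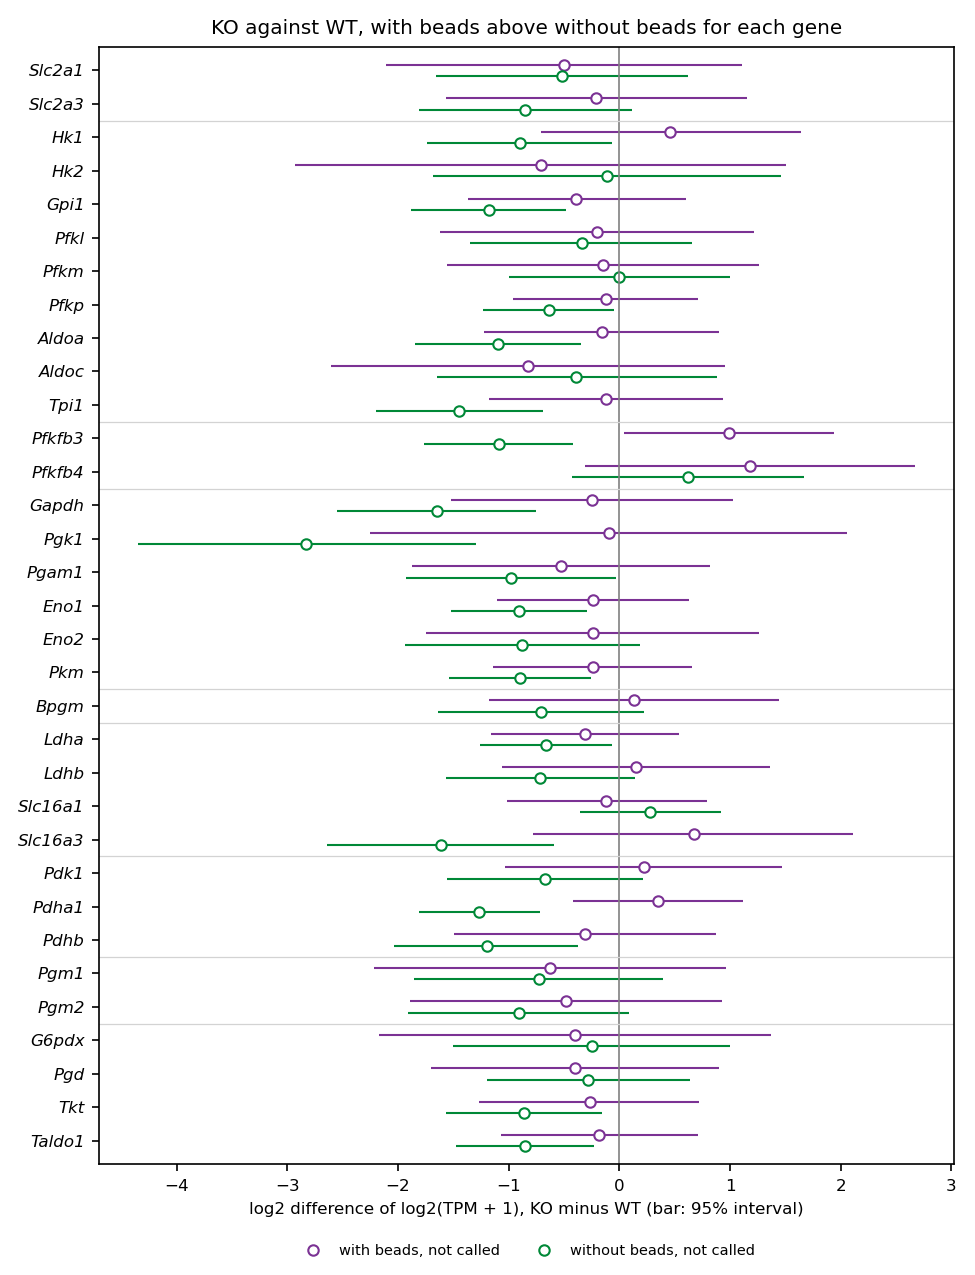
Difference between KO and WT for each of the 33 genes (horizontal axis, log2 difference on the log2(TPM + 1) scale; with beads above without beads for each gene; bars are 95% intervals from limma). All points are open, since no gene passed an adjusted p of 0.05; 30 of the 33 points without beads and 25 of those with beads lie left of 0.

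With beads, too, no gene passed the test between genotypes. The 33 genes had a median KO minus WT difference of -0.21, with 25 of 33 lower, beside 0.13 over all genes and 0.00 over the abundant ones, of which 39.9% and 50% were lower. Again 0 were called, and limma called 0.00333% of all genes lower. At an unadjusted p under 0.05, which 2.89% of all genes reached, there was 1 gene, Pfkfb3, with 15.4 and 12.1 TPM in KO libraries and 4.84 to 9.57 TPM in WT libraries (0.99, 95% interval 0.04 to 1.94, limma adjusted p = 1.00). In 5 genes both KO libraries lay below all WT libraries (Gpi1, Aldoc, Pgam1, Pkm and Taldo1), against 8.02% of all genes and 18.3% of the abundant ones, and in 3 they lay above (Pfkfb3, Pfkfb4 and Pdha1), against 17.4% and 17.7%. Ldha differed by -0.31 (95% interval -1.16 to 0.54) and Gapdh by -0.25 (-1.52 to 1.03), intervals that allow a difference of more than 1 in either gene. With 2 KO libraries the comparison is coarse.

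The bead response was not shown to differ between genotypes for any of the 33 genes. The KO minus WT difference in response was below 0 in 6 of the 33 genes, against 34.6% of all genes and 21.8% of the abundant ones. Its median was 0.64, beside 0.27 over all genes and 0.47 over the abundant ones; 0.00333% of all genes were called higher. These responses share their libraries without beads with the KO against WT comparison above. An unadjusted p under 0.05, reached by 4.16% of all genes, was found for 5, which were Pfkfb3, Pdha1 (1.61, 95% interval 0.67 to 2.56, limma adjusted p = 0.821), Slc16a3 (2.28, 0.50 to 4.05, limma adjusted p = 0.999), Pgk1 (2.73, 0.09 to 5.37, limma adjusted p = 0.999) and Tpi1 (1.32, 0.03 to 2.62, limma adjusted p = 0.999). Scaling to the abundant genes moved the median of all genes to -0.06 and that of the 33 to 0.20, with 10 of the 33 below 0.

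Ratios of 2 genes within 1 library depend little on how the library is scaled, and were taken as differences of log2(TPM + 1). For 11 pairs and 4 comparisons, 44 tests in all, 9 had an exact two-sided permutation p under 0.05 and 0 passed Benjamini-Hochberg adjustment (lowest adjusted p = 0.175). The smallest possible p is 0.0286 for beads in WT cells, 0.0357 for beads in KO cells and 0.1 between genotypes with beads. Adjustment over 44 tests thus left these comparisons almost no room to pass, and the 0 says little about their ratios. In WT cells the log2 ratio of Slc16a3 to Slc16a1 was -1.18 ± 0.66 with beads and 2.59 ± 0.94 without (SD, n = 3 and 4), a difference of -3.77 (exact permutation p = 0.0286, the smallest these numbers allow). In these WT libraries the ratio of MCT4 to MCT1 transcripts was thus negative with beads and positive without, a difference that did not pass adjustment. Slc16a1 was at 0.574 to 1.5 TPM in WT libraries without beads, close to the pseudocount of 1, and Slc16a3 itself was not called. In KO cells without beads that ratio was 0.70 ± 0.87, against 2.59 ± 0.94 in WT cells without beads (n = 6 and 4; exact permutation p = 0.0190, adjusted p = 0.175). Without WT library 3 this KO minus WT difference, -1.89 with all libraries, was -1.58 and its p was above 0.05.

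Ratios of the trunk isozymes were compared in the same way. Aldoa over Aldoc was higher with beads by 3.48 in KO cells (exact permutation p = 0.0357, the smallest possible) and by 2.10 in WT cells (exact permutation p = 0.0286). Eno1 over Eno2 was higher by 2.02 in KO cells (exact permutation p = 0.0357) and 1.99 in WT cells (exact permutation p = 0.0286). Ldha over Ldhb was 4.62 ± 0.43 with beads and 2.63 ± 0.23 without in WT cells (n = 3 and 4; exact permutation p = 0.0286). In KO cells this ratio was 4.16 ± 0.96 with beads and 2.68 ± 0.80 without (n = 2 and 6; exact permutation p = 0.0714). The remaining 2 of the 9, both in WT cells with against without beads, were Slc2a1 over Slc2a3 (difference 2.14) and Pfkm over Pfkl (-1.06), each with an exact permutation p of 0.0286.

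Ordered by mean TPM, the pathway kept Ldha at its head. In KO cells with beads Ldha (880 ± 199 TPM) was followed by Gapdh (560 ± 57.9 TPM), Aldoa (504 ± 83.1 TPM), Eno1 (492 ± 128 TPM) and Pkm (376 ± 13.1 TPM; SD, n = 2), of which Gapdh, Aldoa and Eno1 do not differ beyond their spread. Counting its copies, Gapdh would lead, at 1680 ± 283 TPM. At least 100 TPM on average was reached by 11 of the 33 genes in each bead group, by 1 in KO cells without beads and by 4 in WT cells without beads. Averaged over the 33 genes, log2(TPM + 1) was 5.11 ± 0.12 in KO libraries with beads, 5.23 ± 0.13 in WT libraries with beads, 3.42 ± 0.30 in KO libraries without beads and 4.23 ± 0.21 in WT libraries without (SD over libraries).

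Beyond the 33 genes, 94 of 96 related genes could be tested. With beads 15 rose and 0 fell in KO cells, while in WT cells 14 rose and 3 fell. Of all 29989 genes, 5.95% rose in KO cells and 4.6% in WT cells, while 646 and 1988 fell. None of the related genes was called in the other 3 comparisons. Myc rose with beads, to 128 and 158 TPM in KO libraries, against 1.57 to 7.85 TPM without (log2 difference 4.88, SE 0.46, limma adjusted p = 4.23e-05), and to 140, 179 and 168 TPM in WT libraries against 3.05 to 9.36 TPM without (4.59, SE 0.43, limma adjusted p = 6.16e-05). Hif1a had 56.5 and 76.7 TPM in KO libraries with beads and 13.2 to 27.7 TPM in those without (1.61, SE 0.33, limma adjusted p = 0.00739), a call lost without KO library 4 (1.83) or 5 (1.39) with beads. In WT libraries Hif1a had 54.8 to 74.5 TPM with beads and 25.3 to 44.8 TPM without (0.94, SE 0.31, limma adjusted p = 0.0653), a difference that was called without WT library 3 without beads (1.08). Txnip, which lowers glucose uptake by removing transporters from the surface, fell by 1.51 in WT cells with beads (SE 0.43, limma adjusted p = 0.0364), and its difference in KO cells was -1.19 (SE 0.47, limma adjusted p = 0.144). The WT call of Txnip was lost without any of the 7 WT libraries but library 2 without beads, at -1.66 to -1.20, and with median-ratio scaling (-0.92). In KO cells Txnip was called lower when scaled to abundant genes (-1.62) and with abundant predicted genes left out (-1.80). The difference between its 2 bead responses, KO minus WT, was 0.32 (95% interval -1.04 to 1.67, limma adjusted p = 0.999).

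The related genes with the smallest adjusted p were Irf4, Myc, Phgdh and Trp53 in KO cells, and Irf4, Myc, Phgdh and Bsg in WT cells. Irf4, a transcription factor of activated lymphocytes, had 86.3 and 73.1 TPM in KO libraries with beads and 0.540 to 2.16 TPM in those without, and 90.1 to 93.9 TPM in WT libraries with beads and 0.18 to 1.92 TPM in those without. Phgdh, which diverts 3-phosphoglycerate to serine synthesis, rose by 3.88 in KO cells (SE 0.44, limma adjusted p = 0.000133) and by 3.53 in WT cells (SE 0.41, limma adjusted p = 0.000174). Bsg, the chaperone of MCT1 and MCT4 at the cell surface, rose by 2.00 in WT cells (SE 0.33, limma adjusted p = 0.00191), with 144 to 248 TPM with beads and 35.7 to 54.2 TPM without. Trp53, which encodes p53, had 140 and 136 TPM in KO libraries with beads and 20.2 to 40.8 TPM in those without (2.23, SE 0.32, limma adjusted p = 0.000748). None of the 12 tested genes of gluconeogenesis and glycogen was called. At the shares given above for all genes, 12 genes are too few to show a lack of calls.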

How the data were processed

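The 15 libraries were Smart-Seq2 libraries of sorted mouse Treg cells, and the authors deposited 1 table of TPM per library, as the labels name the unit. The submitters' processing notes name STAR, Salmon, DESeq2 and mm10; for no tool is a role or version given. Tables of libraries without beads list 36904 genes and those with beads 31785; the 30949 genes in both were used. A gene was tested if 2 or more libraries reached 1 TPM (29989 genes, all 33 members among them), log2(TPM + 1) was fitted with 1 mean per group over all 15 libraries (11 residual degrees of freedom) in limma 3.58.1 on R 4.3.3 with a variance trend, and p-values were adjusted by the Benjamini-Hochberg method over all genes. The pseudocount of 1 understates changes of low genes. SE are from limma; ± beside TPM is the SD between libraries. Dock8 and within-library ratios were compared by exact two-sided permutation tests. Copies of members were found with blastn among GENCODE vM21 transcripts (at least 95% identity over at least 400 bases and 50% of the copy's longest transcript). The members, lists and tests were chosen with earlier results of these data known. Every member is accounted for. The 10 called members of smallest adjusted p per comparison, the most abundant member of each role, Dock8, Myc, Hif1a, Txnip and up to 4 called related genes per comparison were named by rule; values of others, and the genes whose copies or promoters are shown, were chosen after the values were seen. Scripts were tested on simulated data. Alternatives covered the pseudocount, the filter, 3 rescalings, the groups fitted, a replicate block and each library left out. Counts over abundant genes, the fit without the 3 KO libraries with over 50% of TPM in predicted genes, and copies found by sequence summed with their gene were added after the data were seen.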

Additional observations from a re-analysis of the deposited data

Results flagged for a closer look

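Over the 33 genes and the 2 groups of libraries without beads, 66 groups of values were looked at, and in 3 a single library stood far from the rest; chance gives this in about 1 in 20 groups. Pdk1 was at 32.2 TPM in KO library 3 without beads, against 6.94 to 9.91 TPM in the other 5. In the same library Pdha1 was the lowest, at 8.53 TPM against 13.3 to 17.0 TPM. Pfkl was at 4.17 TPM in WT library 2 without beads, against 9.31 to 10.8 TPM in the other 3.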

How the results depend on the processing

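No member was called between KO and WT cells, or for a difference in bead response, under any of the alternatives run. The calls with beads kept their direction throughout: 8 of 15 in KO cells and 9 of 10 in WT cells held under all 27 alternatives. Members called with beads in KO cells numbered 15 or 16 with a library of another group or a KO library without beads left out, and fewer without either KO bead library. In WT cells they numbered 9 to 11 with single libraries left out, in some fits with 1 called lower. With median-ratio scaling 17 were called in WT cells. There, 1 was called lower with a pseudocount of 5 and with a filter of 5 TPM, and 2 with abundant predicted genes left out. Whether libraries with the same title number share a mouse is not given. Correlations of same-numbered libraries were -0.04 to 0.05, and values near 0 do not settle it. With the number as a replicate block, 0, 0, 10, 9 and 0 members were called in the 5 comparisons. These are, in order, KO against WT without and with beads, beads in KO, beads in WT and the difference in response. The block turned the KO against WT difference with beads of Ldha to 0.22 and of Gapdh to 0.40, and leaving out abundant predicted genes turned the WT bead difference of Pdha1 to -0.24, none of them called; the cause was not tested. Isozyme ratios with an exact p under 0.05 numbered 5 with a pseudocount of 0.1 and 2 to 10 with single libraries left out, where fewer libraries raise the smallest possible p. The Dock8 difference without beads was -0.50 with median-ratio scaling and -0.32 scaled to abundant genes, neither of which passed the threshold, and -0.85 to -0.46 with single libraries left out. Depth is unknown, so no precision can be given for low values.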
